A study of Mus musculus with 8 samples.

Results

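The genes described here encode proteins that sense, cleave or store fatty acid esters of hydroxy fatty acids (FAHFAs) and related lipids. The list held 10 genes: the receptors Ffar1, Ffar4 and Gpr119, the FAHFA hydrolases Aig1 and Adtrp, the lipases Pnpla2, Lipe, Mgll and Lpl, and the triglyceride-synthesising enzyme Dgat2. They were taken by name and not by a cut on a measured value, although earlier results of these data were known. Of the 10 genes, 9 were among the 13725 genes of the deposited table and all 9 were tested. Adtrp was not analysed here.

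The tissue was pancreatic islets from female NOD mice aged 10 weeks, a strain that develops autoimmune diabetes. The mice had been given PAHSA (spelled PASHA in the sample labels; 4 libraries, replicates 1, 2, 3 and 4) or vehicle (4 libraries, replicates 1, 3, 4 and 5), and genotype, sex and age are the same in both groups. The sources used here do not give the dose, route or duration of treatment. The design text speaks of 4 mice per group, whereas the extraction protocol describes 4 sets of islets, each pooled from 2 mice, so p-values measure the spread between libraries, which may stand for single mice or for pools.

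PAHSAs are FAHFAs in which palmitic acid is esterified to a hydroxystearic acid. FFAR1 (GPR40) is a receptor for long-chain fatty acids that amplifies glucose-stimulated insulin secretion in beta cells, FFAR4 (GPR120) is a related receptor that in mouse islets is best known from delta cells, and both have been studied as receptors of PAHSAs. Inside cells, AIG1 and ADTRP cleave FAHFAs. PNPLA2, LIPE and MGLL act in the breakdown and DGAT2 in the synthesis of triglycerides, in which FAHFAs can also be stored. LPL releases fatty acids from circulating lipoproteins.

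Recovered estimated counts ranged from 35356278 to 39359123 per PAHSA library and from 34461742 to 45236238 per vehicle library. The islet label was checked against hormone genes. Ins2, the main mouse insulin gene, lay between 16.32 and 16.66 log2 CPM in PAHSA libraries and between 16.22 and 16.62 in vehicle libraries. The 10 beta cell markers summed to 141500 to 175800 CPM in PAHSA and 137100 to 180000 CPM in vehicle libraries, and the 4 delta and PP cell markers to 6777 to 8559 CPM in PAHSA and 7639 to 9748 CPM in vehicle libraries. In their mean log2 CPM, which weights each gene equally, the beta cell markers did not overlap between groups, at 9.79 to 9.98 in PAHSA and 9.42 to 9.67 in vehicle libraries, and 8 of the 10 were higher, 3 with an unadjusted p under 0.05. The 7 alpha cell markers summed to 66990 to 81160 CPM in PAHSA and 61130 to 69950 CPM in vehicle libraries. The 15 acinar markers analysed summed to 3451, 14390, 8920 and 324.7 CPM in PAHSA replicates 1, 2, 3 and 4, against 9435, 9598, 38830 and 24130 CPM in vehicle replicates 1, 3, 4 and 5. Of 13 acinar markers tested 13 were lower in PAHSA, 10 with an unadjusted p under 0.05; of 6 duct markers 4 were lower, 3 at that level, with sums of 2232 to 3045 CPM in PAHSA and 2931 to 4813 CPM in vehicle libraries. By limma 0 of these markers passed an adjusted p of 0.05. At an unadjusted p under 0.05, 3.02% of all 12231 genes tested were higher and 4.29% lower in PAHSA. At any size 50.9% of them were lower. The 10 stellate cell and fibroblast markers summed to 38.3 to 143 CPM in PAHSA and 82.2 to 314 CPM in vehicle libraries. Of 9 tested 8 were lower in PAHSA, 1 with an unadjusted p under 0.05. In mean log2 CPM the duct markers did not overlap either, at 5.34 to 6.15 in PAHSA and 6.18 to 6.56 in vehicle libraries. Nor did the stellate cell and fibroblast markers, at 0.41 to 2.02 in PAHSA and 2.10 to 4.10 in vehicle libraries. That list held weak genes, which count as much as strong ones in this mean, and its summed CPM overlapped between groups. The part of these cell types in the results below was not tested. None of the 8 adipocyte markers was analysed here.

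All 9 genes were detected in every library, over a wide range of levels. Per kilobase of transcript, Lpl was highest at 80.7 ± 8.75 CPM (SD over all 8 libraries), followed by Aig1 at 52.6 ± 7.01, Pnpla2 at 40.6 ± 7.47, Ffar4 at 24.7 ± 3.58 and Ffar1 at 12.5 ± 2.63 CPM per kilobase. Gpr119 at 7.78 ± 3.87, Dgat2 at 5.61 ± 1.75, Lipe at 1.75 ± 0.632 and Mgll at 0.573 ± 0.413 CPM per kilobase made up the lower end. Lpl lay above Aig1, Ffar4 above Ffar1, and Dgat2 above Lipe without overlap of the 8 libraries in CPM per kilobase. Pnpla2 exceeded Ffar4 and Lipe exceeded Mgll within each of the 8 libraries, although their ranges over libraries overlapped. The other neighbours were not separated: Aig1 exceeded Pnpla2 in 7 of 8 libraries, Ffar1 exceeded Gpr119 in 6 and Gpr119 exceeded Dgat2 in 6. With the longest in place of the median transcript length, Pnpla2 came to 21.5 CPM per kilobase and stood below Ffar4 in the order. The order of the other genes did not change.

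**Figure D1:**
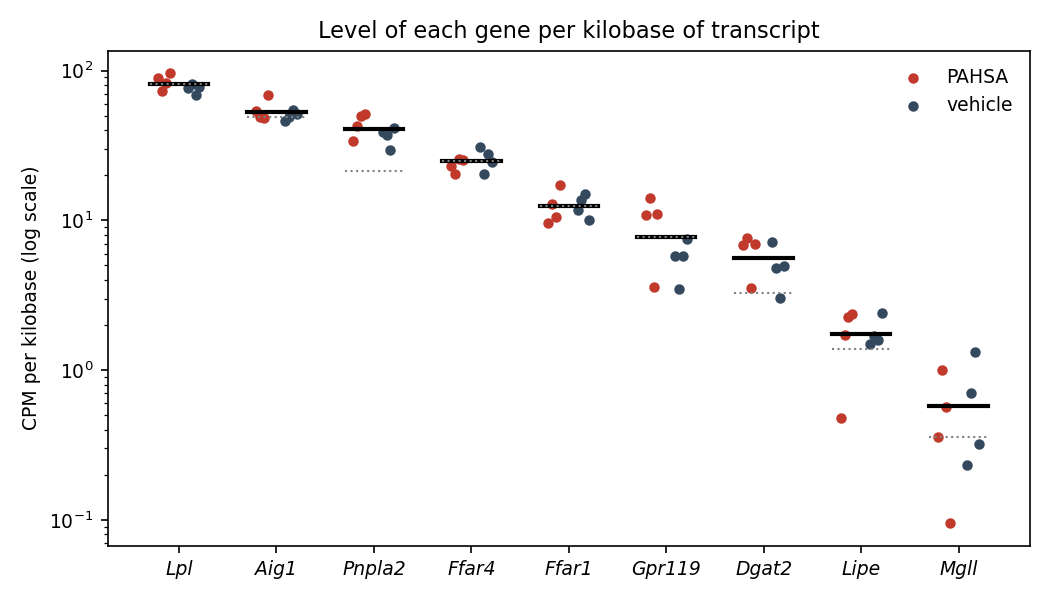
Level of each gene in CPM per kilobase of transcript (log axis), one point per library, with PAHSA libraries left of vehicle libraries. The solid line is the mean over 8 libraries with the median transcript length and the dotted line the mean with the longest transcript, and the order runs from Lpl at 80.7 to Mgll at 0.573 CPM per kilobase.

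No gene of the list passed the test between PAHSA and vehicle islets. By limma, 0 of the 9 genes had an adjusted p under 0.05, as did 0 of the 12231 genes tested (0%). At an unadjusted p under 0.05 there were 0 of the 9 genes, where the share over all genes tested was 7.31% (894 genes; 3.02% higher and 4.29% lower in PAHSA), and eBayes without trend gave 803 genes. The mean log2 CPM was higher in PAHSA for 5 genes (Gpr119, Dgat2, Pnpla2, Lpl and Aig1) and lower for 4 (Mgll, Lipe, Ffar4 and Ffar1), where 49.1% of all genes tested were higher. The median difference was 0.11 on the log2 scale over the 9 genes and -0.006 over all genes. PAHSA and vehicle libraries overlapped in all 9 genes, and 4.01% of all genes tested had no overlap. In bulk islets, fewer cells of a type and less RNA per cell cannot be told apart.

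**Figure D2:**
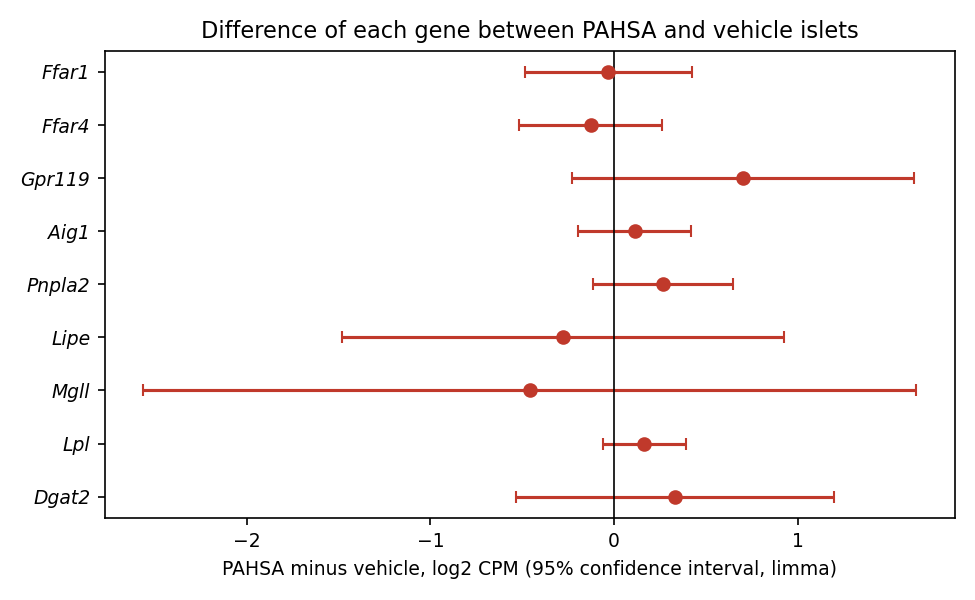
Difference of each gene, PAHSA minus vehicle, in log2 CPM, with its 95% confidence interval from limma (n = 4 libraries per group). All 9 intervals include 0, and they are narrowest for Lpl (-0.06 to 0.39) and widest for Mgll (-2.56 to 1.65).

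Ffar1 (ENSMUSG00000044453, a single-exon gene on chromosome 7 from 30857390 to 30861564, minus strand, GRCm38) was at 5.32, 5.74, 5.46 and 6.16 in PAHSA replicates 1 to 4, against 5.60, 5.84, 5.97 and 5.38 log2 CPM in vehicle replicates 1, 3, 4 and 5. The highest and the lowest library were both PAHSA libraries, so the PAHSA values enclosed the vehicle values. PAHSA libraries averaged 5.67 ± 0.37 and vehicle libraries 5.70 ± 0.26 log2 CPM (SD, n = 4 each), a difference of -0.03 (SE 0.21, limma adjusted p = 0.987) with a 95% confidence interval of the fold from 0.715 to 1.34. The difference changed sign in 4 of the 8 fits that left out a library, those without PAHSA replicate 1 or 3 or vehicle replicate 3 or 4.

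Ffar4 (ENSMUSG00000054200, chromosome 19 from 38097071 to 38114263, plus strand) varied little among the PAHSA libraries, at 5.01, 4.83, 5.17 and 5.14 log2 CPM in replicates 1 to 4, against 5.44, 4.84, 5.28 and 5.10 log2 CPM in vehicle replicates 1, 3, 4 and 5. The vehicle range covered all PAHSA libraries but replicate 2, which was lowest at a level close to vehicle replicate 3. PAHSA libraries averaged 5.04 ± 0.16 and vehicle libraries 5.17 ± 0.26 log2 CPM (SD, n = 4 each), a difference of -0.13 (SE 0.18, limma adjusted p = 0.903). The 95% confidence interval of the fold ran from 0.698 to 1.20. Over the fits without a library the difference lay between -0.04 (without vehicle replicate 1) and -0.23 (without vehicle replicate 3), with -0.06 without PAHSA replicate 2. The delta cell hormone gene Sst was at 11.94 to 12.25 log2 CPM in PAHSA and 12.11 to 12.37 log2 CPM in vehicle libraries.

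Gpr119 (ENSMUSG00000051209, X chromosome from 48667979 to 48674478, minus strand) encodes a receptor for monoacylglycerols and fatty acid ethanolamides that raises cAMP and is found on islet endocrine cells. It had the widest difference between group means in the list. Its levels were 4.62, 5.0, 3.03 and 4.65 in PAHSA replicates 1 to 4, against 3.71, 2.99, 3.71 and 4.10 log2 CPM in vehicle replicates 1, 3, 4 and 5. Thus 3 of 4 PAHSA libraries lay above every vehicle library, whereas PAHSA replicate 3 lay at the level of vehicle replicate 3, the lowest of all. In estimated counts, the range was 324 to 1141 in PAHSA and 325 to 775 in vehicle libraries. PAHSA libraries averaged 4.33 ± 0.88 and vehicle libraries 3.63 ± 0.46 log2 CPM (SD, n = 4 each), a difference of 0.70 (SE 0.42) or 1.63-fold, with a 95% confidence interval of the fold from 0.852 to 3.10. The limma adjusted p was 0.748. The difference was 1.13 without PAHSA replicate 3, 0.47 without PAHSA replicate 2 and 0.49 without vehicle replicate 3, and 0 genes passed over all genes in each of these fits.

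**Figure D3:**
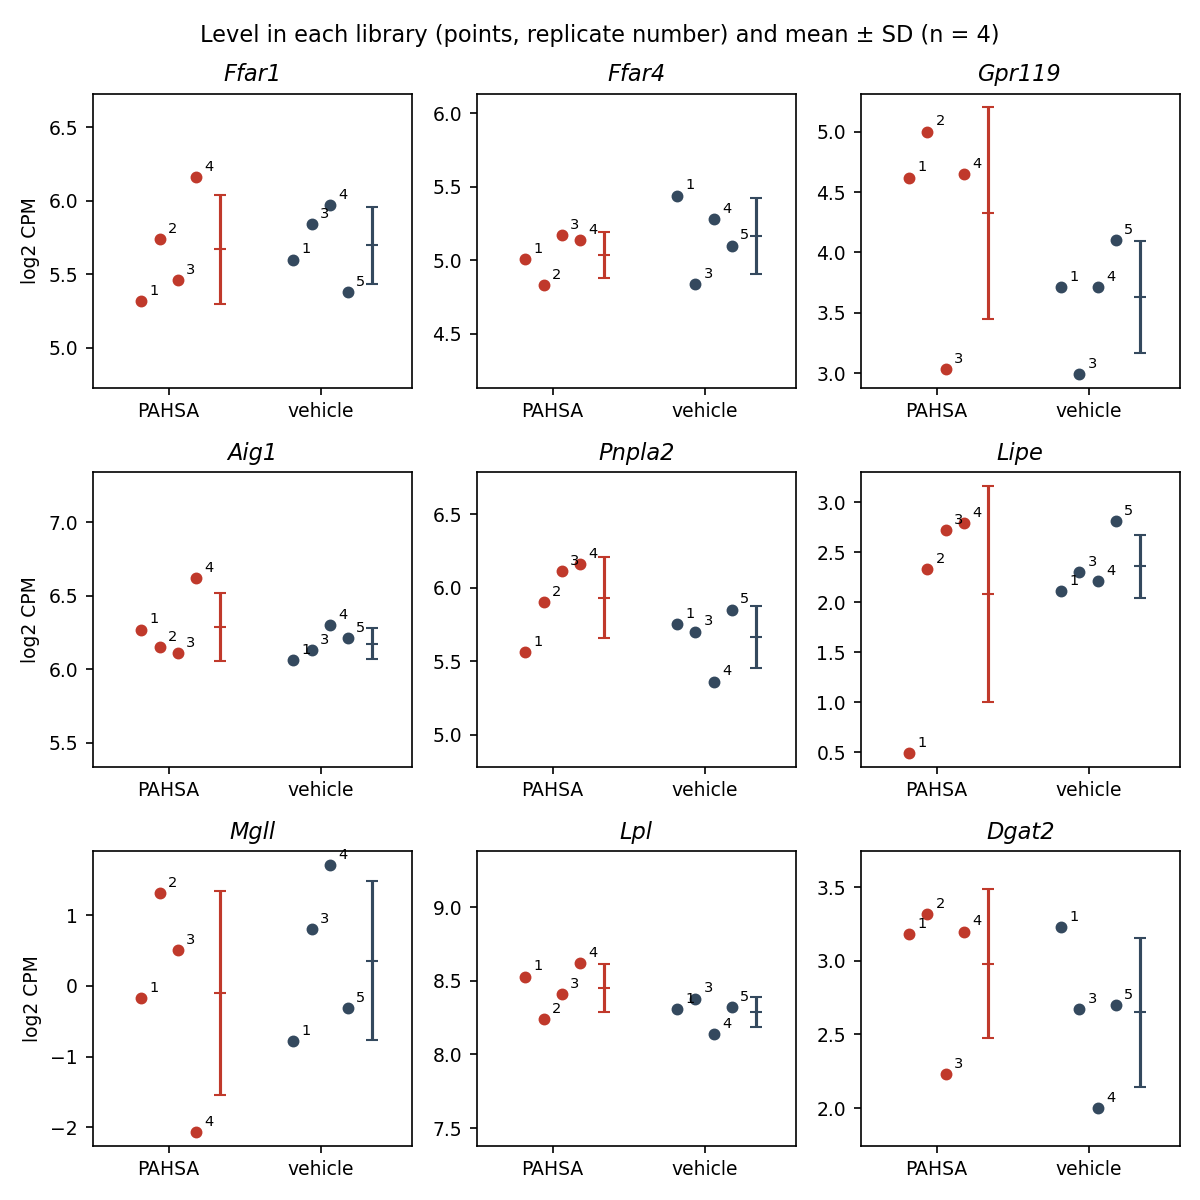
Level of the 9 genes in each library in log2 CPM, PAHSA left and vehicle right, with the replicate number beside each point and the mean ± SD (n = 4) as a bar. The y axes differ between panels and span at least 2 log2 units. The groups overlap in every panel, and single PAHSA libraries stand low for Gpr119 (replicate 3), Lipe (replicate 1), Dgat2 (replicate 3) and Mgll (replicate 4).

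Aig1 (ENSMUSG00000019806, chromosome 10 from 13647054 to 13868980, minus strand) encodes a transmembrane hydrolase that cleaves FAHFAs and was one of the steadiest genes of the list. It was at 6.27, 6.15, 6.11 and 6.62 in PAHSA replicates 1 to 4, against 6.06, 6.13, 6.30 and 6.21 log2 CPM in vehicle replicates 1, 3, 4 and 5. PAHSA replicate 4 lay above all other libraries, and the other 3 PAHSA libraries lay within the vehicle range. PAHSA libraries averaged 6.29 ± 0.23 and vehicle libraries 6.18 ± 0.10 log2 CPM (SD, n = 4 each), a difference of 0.11 (SE 0.14, limma adjusted p = 0.890), which came to 0.00 without PAHSA replicate 4 and 0.07 without vehicle replicate 1. The interval of the fold was 0.873 to 1.34, and the difference was 0.17 without PAHSA replicate 3.

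Pnpla2 (ENSMUSG00000025509, chromosome 7 from 141455198 to 141460743, plus strand) encodes adipose triglyceride lipase, which starts the breakdown of stored triglycerides and has been described to form FAHFAs by transacylation. Its levels were 5.56, 5.90, 6.11 and 6.16 in PAHSA replicates 1 to 4, against 5.75, 5.70, 5.36 and 5.85 log2 CPM in vehicle replicates 1, 3, 4 and 5. PAHSA replicates 2, 3 and 4 lay above every vehicle library and PAHSA replicate 1 lay among the vehicle libraries. PAHSA libraries averaged 5.93 ± 0.28 and vehicle libraries 5.66 ± 0.21 log2 CPM (SD, n = 4 each), a difference of 0.27 (SE 0.17) or 1.20-fold (95% confidence interval of the fold 0.924 to 1.57, limma adjusted p = 0.760). Without vehicle replicate 4 the difference was 0.17, and without the libraries numbered 4 of both groups it was 0.09. Without PAHSA replicate 1 it rose to 0.39.

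Lipe (ENSMUSG00000003123, chromosome 7 from 25379527 to 25398710, minus strand) encodes hormone-sensitive lipase, which acts on diglycerides and cholesteryl esters. It was at 0.49, 2.33, 2.72 and 2.79 in PAHSA replicates 1 to 4, against 2.11, 2.30, 2.21 and 2.81 log2 CPM in vehicle replicates 1, 3, 4 and 5. PAHSA replicate 1 was the lowest library, with 51 estimated counts, and the other 7 libraries lay within a range of less than 1 log2 unit. PAHSA libraries averaged 2.08 ± 1.08 and vehicle libraries 2.36 ± 0.31 log2 CPM (SD, n = 4 each), a difference of -0.28 (SE 0.55, limma adjusted p = 0.935) that turned to 0.25 without PAHSA replicate 1 and came to -0.13 without vehicle replicate 5, -0.49 without PAHSA replicate 3 and -0.52 without PAHSA replicate 4. Lipe overlaps 4732471J01Rik on the opposite strand, and since the Nextera XT libraries do not mark the strand, reads from the 2 genes could not be told apart where they overlap.

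Mgll (ENSMUSG00000033174, chromosome 6 from 88724412 to 88828360, plus strand) encodes monoglyceride lipase, which completes triglyceride breakdown and also degrades the endocannabinoid 2-arachidonoylglycerol. It was the weakest gene of the list, with 9 to 118 estimated counts per library. Its levels were -0.17, 1.31, 0.51 and -2.07 in PAHSA replicates 1 to 4, against -0.78, 0.80, 1.71 and -0.31 log2 CPM in vehicle replicates 1, 3, 4 and 5. Both groups were scattered over more than 2 log2 units, with the lowest library in PAHSA and the highest in vehicle. The difference of -0.46 (SE 0.95, limma adjusted p = 0.939) turned to 0.20 without PAHSA replicate 4. Its 95% confidence interval, a fold of 0.169 to 3.13, was the widest of the list on the log2 scale. The part of depth in this was not tested. GENCODE M21 places 5 other genes within its bounds.

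Lpl (ENSMUSG00000015568, chromosome 8 from 68880491 to 68907448, plus strand) encodes lipoprotein lipase, which releases fatty acids from circulating lipoproteins and is made by several cell types, beta cells among them. At 8.53, 8.24, 8.41 and 8.62 in PAHSA replicates 1 to 4, against 8.31, 8.38, 8.14 and 8.32 log2 CPM in vehicle replicates 1, 3, 4 and 5, it lay above 97.0% or more of the genes of each library. PAHSA replicates 1, 3 and 4 were higher than every vehicle library and PAHSA replicate 2 lay within the vehicle range. PAHSA libraries averaged 8.45 ± 0.17 and vehicle libraries 8.29 ± 0.10 log2 CPM (SD, n = 4 each), a difference of 0.16 (SE 0.10, limma adjusted p = 0.756). This was the most precise estimate of the list, with an interval of the fold from 0.958 to 1.31. The difference was 0.06 without the libraries numbered 4 of both groups and 0.23 without PAHSA replicate 2. The 3 endothelial markers analysed summed to 25.9 to 40.0 CPM in PAHSA and 31.1 to 64.9 CPM in vehicle libraries, and the 3 macrophage and dendritic cell markers to 138 to 278 CPM in PAHSA and 184 to 428 CPM in vehicle libraries. Lpl itself was at 303 to 395 CPM in PAHSA and 283 to 332 CPM in vehicle libraries. These CPM are not divided by transcript length, so they do not compare levels between genes. The lists held 8 endothelial and 10 macrophage and dendritic cell markers, of which only 3 each were analysed. Which cells made the Lpl RNA was not tested.

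Dgat2 (ENSMUSG00000030747, chromosome 7 from 99153658 to 99182719, minus strand) encodes an enzyme of the last step of triglyceride synthesis. It was at 3.18, 3.32, 2.23 and 3.20 in PAHSA replicates 1 to 4, against 3.23, 2.67, 2.00 and 2.70 log2 CPM in vehicle replicates 1, 3, 4 and 5. PAHSA replicate 3 and vehicle replicate 4 were the low libraries, and the highest vehicle library reached the level of the other 3 PAHSA libraries. PAHSA libraries averaged 2.98 ± 0.50 and vehicle libraries 2.65 ± 0.51 log2 CPM (SD, n = 4 each), a difference of 0.33 (SE 0.39, limma adjusted p = 0.885), or 0.58 without PAHSA replicate 3, 0.53 without vehicle replicate 1, 0.22 without PAHSA replicate 2, 0.12 without vehicle replicate 4 and 0.04 without the libraries numbered 4 of both groups. Dgat1, the other triglyceride-synthesising acyltransferase, named after its value was seen, was at 4.00 ± 0.25 in PAHSA and 3.81 ± 0.27 log2 CPM in vehicle libraries (SD, n = 4 each), a difference of 0.18 (SE 0.24).

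Reads of 5 genes, Ffar4, Gpr119, Pnpla2, Mgll and Dgat2, came back as whole estimated counts (within 0.01) in all 8 libraries. For Ffar1, Aig1 and Lipe the recovered counts were fractional in all 8 libraries and for Lpl in 7, which a model that shares reads between similar transcripts, as kallisto does, can give. Such sharing can add uncertainty to the values of these 4 genes, by an amount that was not measured here.

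Likeness in pattern over the 8 libraries was measured as the root mean square distance between log2 CPM profiles centred on their means, and it describes these libraries only. The nearest of all genes tested were Gm14026 and Fancl for Ffar1 (both at 0.11), Acvr2a and Exoc3 for Ffar4 (0.103 and 0.104), Arrdc2 and Ttc30a1 for Gpr119 (0.215 and 0.251), Atp1b1 and Gstm4 for Aig1 (0.0587 and 0.0702), and Dpp9 and F8a for Pnpla2 (0.0705 and 0.0873). For Lipe they were Atg2b and Dennd1b (0.233 and 0.245), for Mgll Cavin1 and Gabpb2 (0.47 and 0.49), for Lpl Txnrd1 and Bet1l (0.0418 and 0.0538), and for Dgat2 Slc35e4 and Nup160 (0.128 and 0.175). The closest pair within the list was Aig1 and Lpl, at a distance of 0.145, and PAHSA replicate 4 was highest for both. Both genes varied little: their own root mean square spread around the mean was 0.166 for Aig1 and 0.144 for Lpl. The distance was thus close to the spread of Lpl, and whether the pair shares a pattern was not tested.

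Genes around the receptors and lipases were read from 7 lists, in none of which a gene passed an adjusted p of 0.05 by limma. Counts at an unadjusted p under 0.05 stand beside 7.31% of all genes tested, 3.02% higher and 4.29% lower. Other lipid receptors and fatty acid uptake genes had 1 higher and 9 lower of 10 tested, with a median difference of -0.33 on the log2 scale and 0 genes at an unadjusted p under 0.05. The smallest p-values in it belonged to the prostaglandin E2 receptors Ptger4 and Ptger3 and the lysophosphatidic acid receptor Lpar6. Ptger4 had 2.26, -4.57, 2.04 and -6.32 log2 CPM in PAHSA replicates 1 to 4, against 1.40 to 2.49 log2 CPM in vehicle libraries, and Ptger3 had 0.65, 0.59, 2.31 and -6.32 log2 CPM in these PAHSA replicates, against 1.29 to 2.24 in vehicle libraries. The value of -6.32 is the lowest of PAHSA replicate 4, and without that library the differences were -2.14 for Ptger4 and -0.70 for Ptger3. Genes at their library's lowest value numbered 225, 211, 295 and 268 in PAHSA replicates 1 to 4. In vehicle replicates 1, 3, 4 and 5 they numbered 59, 98, 218 and 96. Whether this bears on the counts of this list, which holds several weak genes, was not tested. Lpar6 differed by -0.56 (SE 0.34), or -0.37 without PAHSA replicate 4. Ffar2, a receptor for short-chain fatty acids, was at 5.05 ± 0.15 in PAHSA and 5.06 ± 0.29 log2 CPM in vehicle libraries (SD, n = 4 each), and Ffar3, its neighbour in the family, was at 0.99 ± 0.96 in PAHSA and 1.65 ± 0.71 in vehicle libraries. Both receptors were named after their values were seen.

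G protein signalling genes behind the receptors had 11 higher and 12 lower of 23 tested, a median difference of 0.00, and 1 higher and 3 lower at an unadjusted p under 0.05. Gnai2, an inhibitory G protein subunit, was at 9.46 ± 0.15 in PAHSA and 9.19 ± 0.08 log2 CPM in vehicle libraries (SD, n = 4 each), a difference of 0.27 (SE 0.09, limma adjusted p = 0.671). Prkar1a, a regulatory subunit of protein kinase A, differed by -0.35 (SE 0.12), the phospholipase C gene Plcb4 by -0.49 (SE 0.20) and the adenylyl cyclase gene Adcy3, named after its value was seen, by -1.13 (SE 0.47). The subunits that FFAR1 and GPR119 are best known to couple to, Gnaq and Gnas, also named after their values were seen, differed by 0.15 (SE 0.17) and 0.02 (SE 0.08).

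Other esterases and FAHFA enzymes had 9 higher and 8 lower of 17 tested, with a median difference of 0.04 and 0 higher and 2 lower at an unadjusted p under 0.05. These were Pnpla8, a phospholipase, at 6.55 ± 0.24 in PAHSA and 6.98 ± 0.20 log2 CPM in vehicle libraries (SD, n = 4 each), and Cel. Cel encodes carboxyl ester lipase, a digestive enzyme of acinar cells that can cleave FAHFAs, and it also stands in the acinar marker list. It was at 8.30, 10.21, 9.72 and 4.87 in PAHSA replicates 1 to 4, against 9.79, 9.98, 11.83 and 11.19 log2 CPM in vehicle replicates 1, 3, 4 and 5, a difference of -2.42 (SE 0.98, limma adjusted p = 0.671) that was -1.29 without PAHSA replicate 4. Both PAHSA replicate 4 and vehicle replicate 4, the ends of the Cel range, were also the ends of the summed acinar markers given above. Abhd12, which hydrolyses lysophospholipids and monoacylglycerols, differed by 0.25 (SE 0.14), or 0.13 without PAHSA replicate 2.

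Lipid droplet proteins and lipolysis cofactors had 6 higher and 3 lower of 9 tested, with a median difference of 0.07 and 1 gene, lower, at an unadjusted p under 0.05. That gene was Hilpda, which encodes a lipid droplet protein that inhibits adipose triglyceride lipase and is induced by hypoxia. Hilpda was at 3.16, 4.10, 3.29 and 3.91 in PAHSA replicates 1 to 4, against 4.76, 4.67, 4.63 and 4.96 log2 CPM in vehicle replicates 1, 3, 4 and 5. Every PAHSA library lay below every vehicle library, and the difference of -1.14 (SE 0.26) ranged from -1.30 to -0.99 over the fits without a library, while its limma adjusted p over all genes was 0.671. The droplet protein gene Cidea showed the same separation at low levels, -0.58 to 0.11 log2 CPM in PAHSA and 0.78 to 1.72 in vehicle, with a difference of -1.35 (SE 0.64, limma adjusted p = 0.687). Aup1 differed by 0.19 (SE 0.16), with a range from 0.12 to 0.30 over the fits without vehicle replicate 5 and without vehicle replicate 4. Named after their values were seen, Abhd5, which encodes the coactivator of adipose triglyceride lipase, differed by -0.20 (SE 0.23), and Plin2, the main droplet coat gene outside fat, by 0.02 (SE 0.25).

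**Figure D4:**
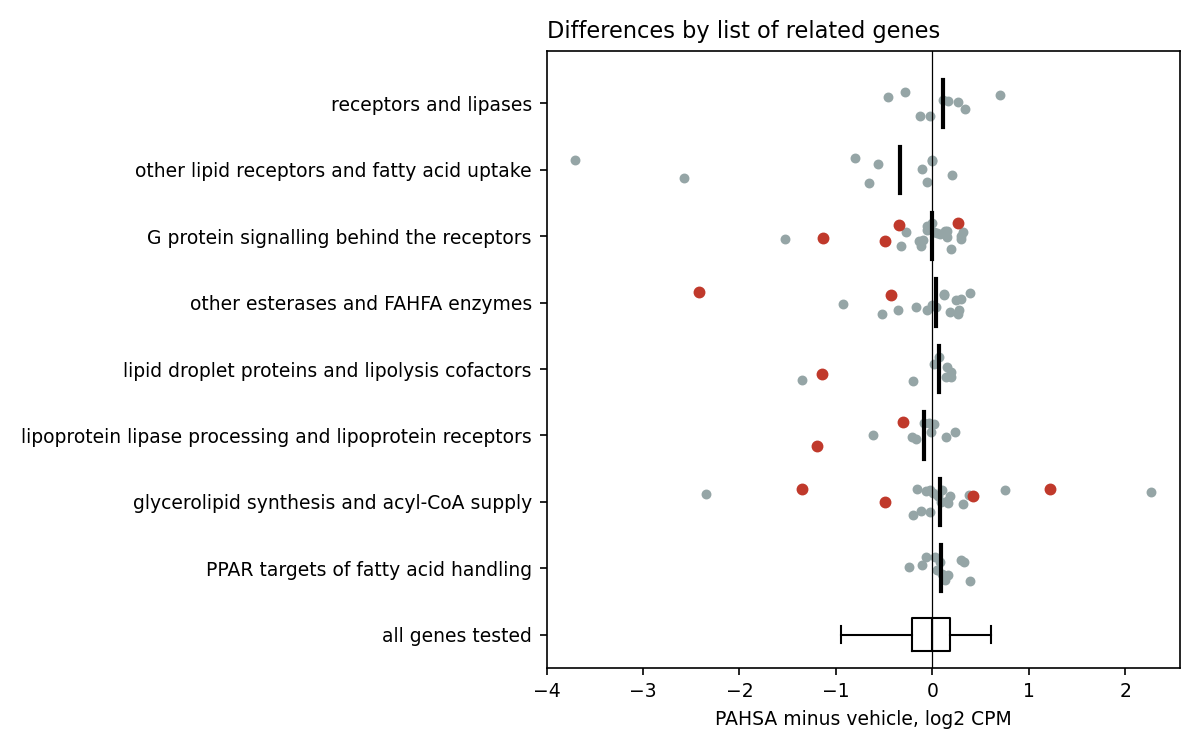
Difference of each tested gene, PAHSA minus vehicle in log2 CPM, for the receptors and lipases and for 7 lists of related genes. Red points have an unadjusted p under 0.05, grey points do not, black lines are list medians, and the box shows all 12231 genes tested (quartiles, whiskers from the 5th to the 95th percentile, -0.95 to 0.61). All 9 receptor and lipase genes are grey.

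Genes of lipoprotein lipase processing and lipoprotein receptors had 3 higher and 8 lower of 11 tested, with a median difference of -0.09 and 0 higher and 2 lower at an unadjusted p under 0.05. Apoe, a lipoprotein component, was at 2.58, 2.64, 1.02 and 2.40 in PAHSA replicates 1 to 4, against 4.60, 3.44, 2.82 and 2.57 log2 CPM in vehicle replicates 1, 3, 4 and 5, a difference of -1.20 (SE 0.53) that was -0.78 without vehicle replicate 1. The sorting receptor gene Sort1 differed by -0.30 (SE 0.14), and Sel1l, whose product is needed for the maturation of lipoprotein lipase, by 0.23 (SE 0.17), or 0.13 without PAHSA replicate 3. Glycerolipid synthesis and acyl-CoA supply had 13 higher and 9 lower of 22 tested, a median difference of 0.08, and 2 higher and 2 lower at an unadjusted p under 0.05. The fatty acid binding protein gene Fabp5 was at 3.01, 4.79, 3.77 and 4.49 in PAHSA replicates 1 to 4, against 5.28, 5.42, 5.75 and 5.04 log2 CPM in vehicle replicates 1, 3, 4 and 5, with no overlap and a difference of -1.36 (SE 0.35, limma adjusted p = 0.671). Acsl4, an acyl-CoA synthetase gene, was also lower without overlap, by a difference of -0.49 (SE 0.16), and the acyltransferase gene Agpat3 was higher without overlap, by 0.42 (SE 0.13). Lpin3, a phosphatidate phosphatase gene named after its value was seen, differed by 1.22 (SE 0.54). In this list 3 of 22 genes had no overlap between groups, and in the droplet list 2 of 9, against 4.01% of all genes. The list of PPAR targets of fatty acid handling had 9 higher and 3 lower of 12 tested, a median difference of 0.09 and 0 genes at an unadjusted p under 0.05. Its members with the smallest p were Pparg at 0.39 (SE 0.28), Cpt1a at -0.24 (SE 0.20) and Pdk4 at 0.33 (SE 0.31). Without 1 library these came to 0.20 for Pparg and -0.43 for Cpt1a (both without PAHSA replicate 3) and to 0.05 for Pdk4 (without vehicle replicate 3).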

How the data were processed

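RNA of mouse pancreatic islets was sequenced in 8 libraries. The deposited values are log2 CPM, which the authors computed from counts scaled by an effective library size. Tools named in the submitters' processing notes are kallisto and limma, without versions. The sources used here give neither the genome build nor the annotation. The values carry the step that log2 CPM shows when 0.5 counts are added, and estimated counts were recovered from it as a description of depth. Per library, 47.8% to 51.5% of these estimates were whole numbers (tolerance 0.01), so no count test was run on them. The authors had already removed weakly expressed genes: every gene of the table lies above its library's lowest value in at least 5 libraries.

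Symbols came from GENCODE release M21 by Ensembl identifier, with 56 of 13725 identifiers unmatched, and positions are those of that annotation (GRCm38), which may not be the build the authors used. Genes with a mean log2 CPM above 0 were tested (12231) with limma 3.58.1 in R 4.3.3 (lmFit, eBayes with a mean-variance trend, group as the only term), two-sided, with Benjamini-Hochberg adjustment over all genes tested and a threshold of 0.05. The fit was tested on simulated data. Levels per kilobase divide CPM by the median length of a gene's protein-coding transcripts in GENCODE M21. The members and gene lists were chosen with earlier results of these data known. Named genes are the members, the 3 genes of each list with the smallest p and, for each member, the 2 genes nearest in pattern; others are marked where they appear. The alternatives tried were other filters, log2(CPM + 1), quantile normalization, rescaling each library to the same total, eBayes without trend, leaving out libraries, a replicate block and the longest transcript.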

Additional observations from a re-analysis of the deposited data

Results flagged for a closer look

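In 6 cases a library stood far from the other 3 of its group by Dixon's test (95% critical value), among 80 groups of 4 libraries examined, where chance marks about 1 in 20. Dgat2 was at 2.23 log2 CPM in PAHSA replicate 3, against 3.18 to 3.32 in the other PAHSA libraries. Apoe was at 1.02 log2 CPM in PAHSA replicate 3, against 2.40 to 2.64. Cpt1a was at 6.31 log2 CPM in PAHSA replicate 3, against 5.51 to 5.55, and at 5.62 log2 CPM in vehicle replicate 4, against 6.04 to 6.13 in the other vehicle libraries. Acsl4 was at 6.43 log2 CPM in vehicle replicate 3, against 5.82 to 5.91, and Pparg at 3.51 log2 CPM in vehicle replicate 3, against 4.21 to 4.31.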

How the results depend on the processing

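Under each of 16 alternatives 0 genes passed over all genes, and of 143 differences of the 9 genes 136 kept their direction and 7 reversed. Leaving out a library moved Ffar1 between -0.19 and 0.09, Lipe between -0.52 and 0.25 and Mgll between -0.93 and 0.20. The same fits moved Pnpla2 between 0.17 and 0.39, Lpl between 0.11 and 0.23 and Aig1 between 0.00 and 0.17. Without the libraries numbered 4, Mgll reversed to 0.65; Pnpla2 came to 0.09, Lpl to 0.06, Dgat2 to 0.04, Aig1 to 0.04, Lipe to -0.57 and Ffar1 to -0.10, each of these 6 a move of over 1.5 times, while Gpr119 was at 0.62 and Ffar4 at -0.12. Mgll had no value under a mean log2 CPM above 2. With the longest transcript, Pnpla2 came to 21.5 and Dgat2 to 3.27 CPM per kilobase. The replicate numbers gave no sign of pairing the libraries. Deviations from the group means correlated at -0.02 for each of the numbers 1, 3 and 4, and not every library correlated best with its own number. Such correlations cannot settle whether libraries were prepared in pairs. With the replicate block, 0 genes passed and 747 had an unadjusted p under 0.05, against 894 without it. Mgll and Lipe had the fewest estimated counts of the 9 genes, at 9 to 118 and 51 to 317. How far depth limits their estimates was not tested.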

Other observations

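PAHSA replicate 4 held the highest value for 4 of the 9 genes (Ffar1, Aig1, Pnpla2 and Lpl), where it held the highest value for 14.4% of all genes tested. It also held the lowest value for Mgll. Vehicle replicate 4 held the lowest value for 3 of the 9 (Pnpla2, Lpl and Dgat2), where it did so for 15.8% of all genes tested. These 2 libraries were also the lowest and the highest in summed acinar markers, at 324.7 and 38830 CPM. Whether the acinar share bears on the 9 genes was not tested.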
